A study of Mus musculus with 9 samples.

Results

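The duodenum of nanoparticle-treated mice was compared with that of control mice across all expressed genes, to describe which differences from control were present after treatment. The treated group, CeD+GR, was a celiac disease model based on delayed-type hypersensitivity, and first received composite nanoparticles of gliadin and rapamycin and then enhanced gluten stimulation. The control group was wild type and received gluten without the enhancement. The comparison used these 6 of the 9 libraries of the study, 3 per group, and the other 3 came from CeD, the same model with enhanced gluten and no nanoparticles. Treated and control mice thus differed in the model, in the gluten stimulation and in the nanoparticles at the same time, and their effects cannot be told apart in this comparison. CeD values are given beside the leading genes as a reference. Total RNA was depleted of ribosomal RNA and sequenced in directional libraries. The labels give no age or sex and do not say that each library was its own animal, so that p-values reflect only how far these samples spread, possibly for technical reasons.

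Celiac disease is an immune response to gluten peptides in the proximal small intestine, in which T cells of the lamina propria and cytotoxic lymphocytes within the epithelium act against the absorptive lining. Gliadin is the gluten fraction that carries many of those peptides, and rapamycin inhibits mTORC1, a kinase complex that couples nutrients to protein synthesis and restrains autophagy. The duodenal lining that these cells face is made mostly of enterocytes, which digest and absorb sugars, peptides, fat, iron and calcium, sense bile acids through the nuclear receptor FXR, and express interferon-induced and antigen-presenting genes.

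Levels are in FPKM, read numbers scaled to gene length and to an effective size of each library. For control 2 this size was 14641212, against 16372119 reads in genes. Differences are log2 fold changes of FPKM plus 0.5, which understate the change of genes with low values. Reads assigned to genes ranged from 15373260 to 16852104 per library, and 4.15% to 10.2% of them came from the mitochondrial genome. Several libraries stood apart. Across genes, which are not independent replicates, the correlation of CeD+GR 3 with any other library was between 0.785 and 0.855. The 21 listed gastric and duodenal gland genes summed to 141400 FPKM there and to between 49.7 and 106 FPKM in the other 8 libraries. The 14 listed adipocyte genes summed to 634.8 FPKM in CeD+GR 2 and to 155 FPKM or less elsewhere. Paneth cell genes, which mark crypt bases, summed to 1494 to 3058 FPKM in the libraries numbered 1 and to 96.9 to 240 FPKM in the others.

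The duodenal label was checked against markers of position. The ileal genes Slc10a2, Fabp6 and Fgf15 were at 0.384 FPKM or less in all 9 libraries, and the duodenal hormone Gip was at 23.9 FPKM or more in each. Pdx1, which encodes a proximal duodenal transcription factor, was at 27.2, 26.0 and 26.3 FPKM in control 1 to 3. In CeD+GR 1 to 3 it was at 1.59, 0.118 and 46.0 FPKM, 2 libraries far below control and 1 above. Slc40a1, the iron exporter ferroportin, followed the same order, with 40.9, 18.9 and 21.7 FPKM in control and 1.37, 0.452 and 69.2 FPKM in CeD+GR. Gata4 was at 47.81 to 59.95 FPKM in control and at 42.5, 27.5 and 49.6 FPKM in CeD+GR. Cybrd1 was at 0.166 to 1.16 FPKM and at 0.339, 0.44 and 21.95 FPKM. For the hormones Gip, Sct and Cck, CeD+GR 3 was instead the lowest treated library. Gip was at 59.4 to 117.7 FPKM in control and at 117.2, 193 and 23.9 FPKM in CeD+GR. Sct was at 11.2 to 28.8 and 21.5, 39.1 and 7.21 FPKM, and Cck at 11.67 to 17.1 and 19.99, 11.68 and 4.69 FPKM. The treated libraries thus differed from each other in these markers more than the control libraries did. The part of this in the results below was not tested.

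**Figure D1:**
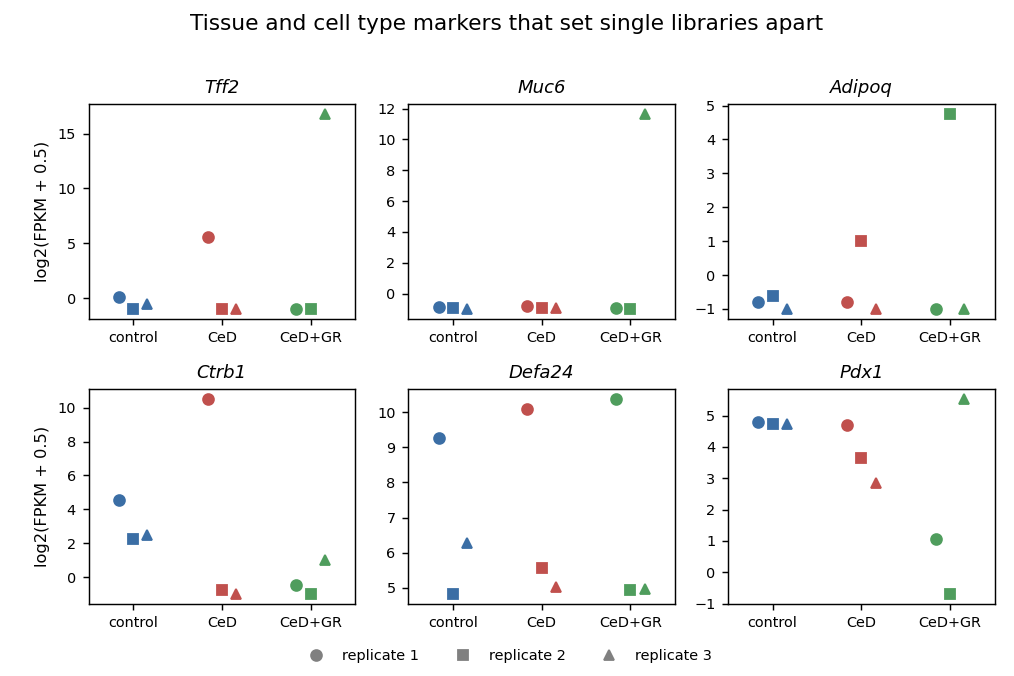
Levels of 6 marker genes in each library, as log2(FPKM + 0.5) on the vertical axis, with groups on the horizontal axis and symbols for the replicate number. Tff2 and Muc6 mark CeD+GR 3, Adipoq marks CeD+GR 2, Ctrb1 is highest in CeD 1, Defa24 is high in the 3 libraries numbered 1, and Pdx1 spans 0.118 to 46.0 FPKM within CeD+GR.

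No gene passed in CeD+GR against control. Of 14683 genes tested with limma, 0 (0%) had an adjusted p under 0.05, and the smallest adjusted p was 1. At an unadjusted p under 0.05 there were 193 genes higher (1.31%) and 207 lower (1.41%), 400 in all. Limma-voom on recovered reads also called 0 genes, with 335 at an unadjusted p under 0.05. The 3 treated libraries all lay above the 3 control libraries for 373 genes (2.54%) and all below for 447 genes (3.04%). An exact permutation test of 3 against 3 cannot go below p = 0.1, so lack of overlap does not by itself show a difference. The median log2 fold change over all genes was -0.00, and 753 genes (5.13%) differed by more than 1 in either direction. The median standard error of a difference was 0.35. The other 3 comparisons of these libraries, CeD+GR against CeD, CeD against control and both challenged groups against control, also had 0 calls each (0%, limma adjusted p, smallest value 1). Everything below is therefore given as values of genes and lists that did not pass.

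Leading genes were ranked by unadjusted p among protein-coding genes whose CeD+GR and control libraries did not overlap and whose higher group averaged at least 1 FPKM. Those with higher values in CeD+GR came from several functions. Mmp15, a membrane-anchored matrix metalloproteinase (ENSMUSG00000031790, mm10 chromosome 8, 95352268 to 95375080), was at 4.23, 4.18 and 3.58 FPKM in control and at 12.01, 7.79 and 12.3 FPKM in CeD+GR. Its lowest treated library lay above the highest control library. CeD was at 4.62, 6.47 and 4.17 FPKM, with CeD 1 and 3 next to control and CeD 2 between control and CeD+GR. The log2 fold change was 1.29 (SE 0.24) by limma, with an unadjusted p of 0.000543 and an adjusted p of 1. Tfcp2l1, a transcription factor of epithelial and pluripotent cells, showed a like order, at 2.41, 3.08 and 3.27 FPKM in control, 2.58, 4.59 and 4.02 FPKM in CeD and 7.70, 6.30 and 8.72 FPKM in CeD+GR. Slc15a2, a peptide transporter best known from kidney, was near absent in control, with 0.0373, 0.232 and 0 FPKM, and in CeD, with 0.0762, 0.217 and 0.297 FPKM, and stood at 1.11, 1.41 and 3.01 FPKM in CeD+GR.

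Rbp4, the carrier protein of retinol, was at 0.895 to 1.57 FPKM in control and at 2.14, 5.83 and 8.06 FPKM in CeD+GR, while CeD lay between 0.994 and 1.64 FPKM. The treated libraries were all higher, with CeD+GR 1 close to control and the other two well above it. Aqp1, a water channel of endothelial and some epithelial cells, was at 137, 126 and 128 FPKM in CeD+GR against 45.4 to 58.8 FPKM in control. CeD was split for Aqp1, with 46.9 FPKM in CeD 1 and 118 and 84.6 FPKM in CeD 2 and 3. Pole4, a small subunit of DNA polymerase epsilon, Plek2, a pleckstrin family protein, and Flcn, which encodes folliculin, complete the 8 genes and are taken up below.

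Among the genes ranked in this way with lower values, Nr0b2 came first. It encodes SHP, a nuclear receptor without a DNA-binding domain that FXR induces when bile acids are bound and that represses bile acid synthesis (ENSMUSG00000037583, chromosome 4, 133553376 to 133556536). Nr0b2 was at 9.37, 15.6 and 15.0 FPKM in control and at 2.28, 5.22 and 6.21 FPKM in CeD+GR, with no overlap. CeD was in between, at 6.89, 7.72 and 7.18 FPKM. The log2 fold change between treated and control was -1.51 (SE 0.35) by limma, unadjusted p of 0.00187, adjusted p of 1, and it ran from -1.76 to -1.13 with each library of the 2 groups left out.

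The bile acid list, which includes Nr0b2, pointed the same way by value. Of 10 listed genes 7 were tested, all 7 had a negative log2 fold change, and the median was -0.98, against -0.00 over all genes. Without CeD+GR 3 all 7 were still negative, with a median of -0.55. None passed, and 2 of the 7, Nr0b2 and Abcc2, lay below control without overlap, against 3.04% of all genes tested. Nr0b2 was picked for its lack of overlap, so its part in these counts was set by that choice. The 3 untested genes were the ileal Slc10a2, Fabp6 and Fgf15. Abcc2, the apical exporter of conjugates, was at 55.1, 55.8 and 42.2 FPKM in control and at 30.5, 34.6 and 14.0 FPKM in CeD+GR, while CeD reached 74.9, 93.0 and 38.2 FPKM. Abcc3, its basolateral relative, was at 28.4, 21.2 and 28.9 FPKM in control and at 13.4, 3.39 and 21.5 FPKM in CeD+GR, so that CeD+GR 3 reached the control range.

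The other members are named after their values were seen. Slc51a and Slc51b encode the 2 subunits of the basolateral bile acid exporter. Slc51a was at 66.5, 131 and 146 FPKM in control and at 59.9, 91.1 and 29.8 FPKM in CeD+GR, and Slc51b had a log2 fold change of -0.86 (SE 0.45). Slc51a overlapped with control through CeD+GR 2 and Slc51b through CeD+GR 1. Gpbar1, the cell surface bile acid receptor, was at 0.307 to 1.14 FPKM in control and at 0.0601, 0.768 and 0.228 FPKM in CeD+GR. Nr1h4, the gene of FXR itself, was at 25.1 to 31.4 FPKM in control and at 36.0, 16.4 and 21.0 FPKM in CeD+GR, so the receptor's own level was above control in 1 library and below it in the other two. Averaged over the 7 members as log2 levels, the list stood at 4.43, 4.87 and 4.89 in control, at 4.26, 4.67 and 4.64 in CeD and at 3.90, 3.86 and 3.62 in CeD+GR. The treated libraries lay below all others on this average. CeD+GR 1 had gastric and adipocyte sums of 65.5 and 100.6 FPKM, close to those of control. Of its position markers, Pdx1 and Slc40a1 were far below control, at 1.59 and 1.37 FPKM, and Gata4 was below control at 42.5 FPKM. Gip, Sct and Cybrd1 were within the control range, at 117.2, 21.5 and 0.339 FPKM, and Cck was above it at 19.99 FPKM. The part of position in this average was not tested.

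The promoters of 3 of these genes are shown, each with a negative log2 fold change, though Slc51a overlapped with control. The sequences are the 250 bases before the RefSeq start in GRCm38.p6, of Nr0b2 (chr4:133553126-133553375, plus strand), Slc51a (chr16:32487880-32488129, minus strand) and Abcc2 (chr19:43782058-43782307, plus strand), read 5′ to 3′ on the gene's strand. Capitals mark AGGTCA on either strand, the half-site that FXR and many other nuclear receptors recognise.
Nr0b2: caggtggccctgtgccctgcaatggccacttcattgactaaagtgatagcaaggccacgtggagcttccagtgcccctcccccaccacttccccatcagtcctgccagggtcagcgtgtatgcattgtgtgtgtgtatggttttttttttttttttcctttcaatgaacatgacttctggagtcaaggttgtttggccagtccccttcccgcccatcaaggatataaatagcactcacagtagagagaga
Slc51a: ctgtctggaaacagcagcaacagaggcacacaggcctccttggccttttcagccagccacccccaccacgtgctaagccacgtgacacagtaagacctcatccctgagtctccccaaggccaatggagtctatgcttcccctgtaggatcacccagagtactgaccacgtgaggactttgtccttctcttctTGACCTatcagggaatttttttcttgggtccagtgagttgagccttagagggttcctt
Abcc2: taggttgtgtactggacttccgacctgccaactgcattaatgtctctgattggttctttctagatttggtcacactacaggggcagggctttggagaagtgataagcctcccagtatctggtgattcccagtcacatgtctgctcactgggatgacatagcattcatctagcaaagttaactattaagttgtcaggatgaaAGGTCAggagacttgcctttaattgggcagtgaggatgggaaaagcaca
Of the 7 tested members 6 had a RefSeq promoter in the table, and 4 of these 6 held the motif, Slc51a 58 and Abcc2 49 bases before the start at its first letter as printed. Over all 32851 promoters of the table, 14% held it in a window of this length. In the Nr0b2 window these 6 letters were not present. A match describes letters only and shows no binding.

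Other low genes belonged to lipid, steroid and energy metabolism. Ppargc1b, a coactivator of mitochondrial and lipid genes (ENSMUSG00000033871), was at 8.03, 7.19 and 6.61 FPKM in control and at 3.98, 4.14 and 2.67 FPKM in CeD+GR, with CeD at 5.13, 3.36 and 4.65 FPKM. Both challenged groups lay below every control library for Ppargc1b. Hsd17b6, a steroid and retinol dehydrogenase, was at 62.4 to 80.9 FPKM in control and at 51.5, 21.6 and 21.1 FPKM in CeD+GR, with CeD at 56.0 to 72.1 FPKM. Gstm3, a glutathione transferase whose reads may be shared with related Gstm genes, was at 386, 634 and 687 FPKM in control and at 290, 123 and 103 FPKM in CeD+GR, with CeD at 437, 522 and 220.1 FPKM. For both enzymes CeD+GR 1 was the treated library nearest to control. Slc16a9, a carnitine and monocarboxylate carrier, was at 17.8 to 21.2 FPKM in control and at 0.351, 0.197 and 8.60 FPKM in CeD+GR, and CeD spanned 5.00 to 20.6 FPKM. As for Pdx1 and Slc40a1, the lowest values were in CeD+GR 1 and 2.

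The last 3 low genes had small levels. Slc10a4, a relative of the bile acid carriers found in neurons and mast cells, was at 0.704, 1.49 and 2.36 FPKM in control and at 0.276, 0 and 0.203 FPKM in CeD+GR, with CeD at 0.959 to 2.94 FPKM. Lrfn3, a synaptic adhesion protein, was at 3.43 to 4.54 FPKM in control and at 1.25 to 2.62 FPKM in CeD+GR, with CeD at 2.28 to 3.81 FPKM. Ky, a muscle protein, was at 0.962 to 1.41 FPKM in control and at 0.167 to 0.367 FPKM in CeD+GR, with CeD at 0.619 to 1.31 FPKM. In bulk tissue, fewer cells of a type and less RNA per cell cannot be told apart, and this holds for each gene and list here.

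**Figure D2:**
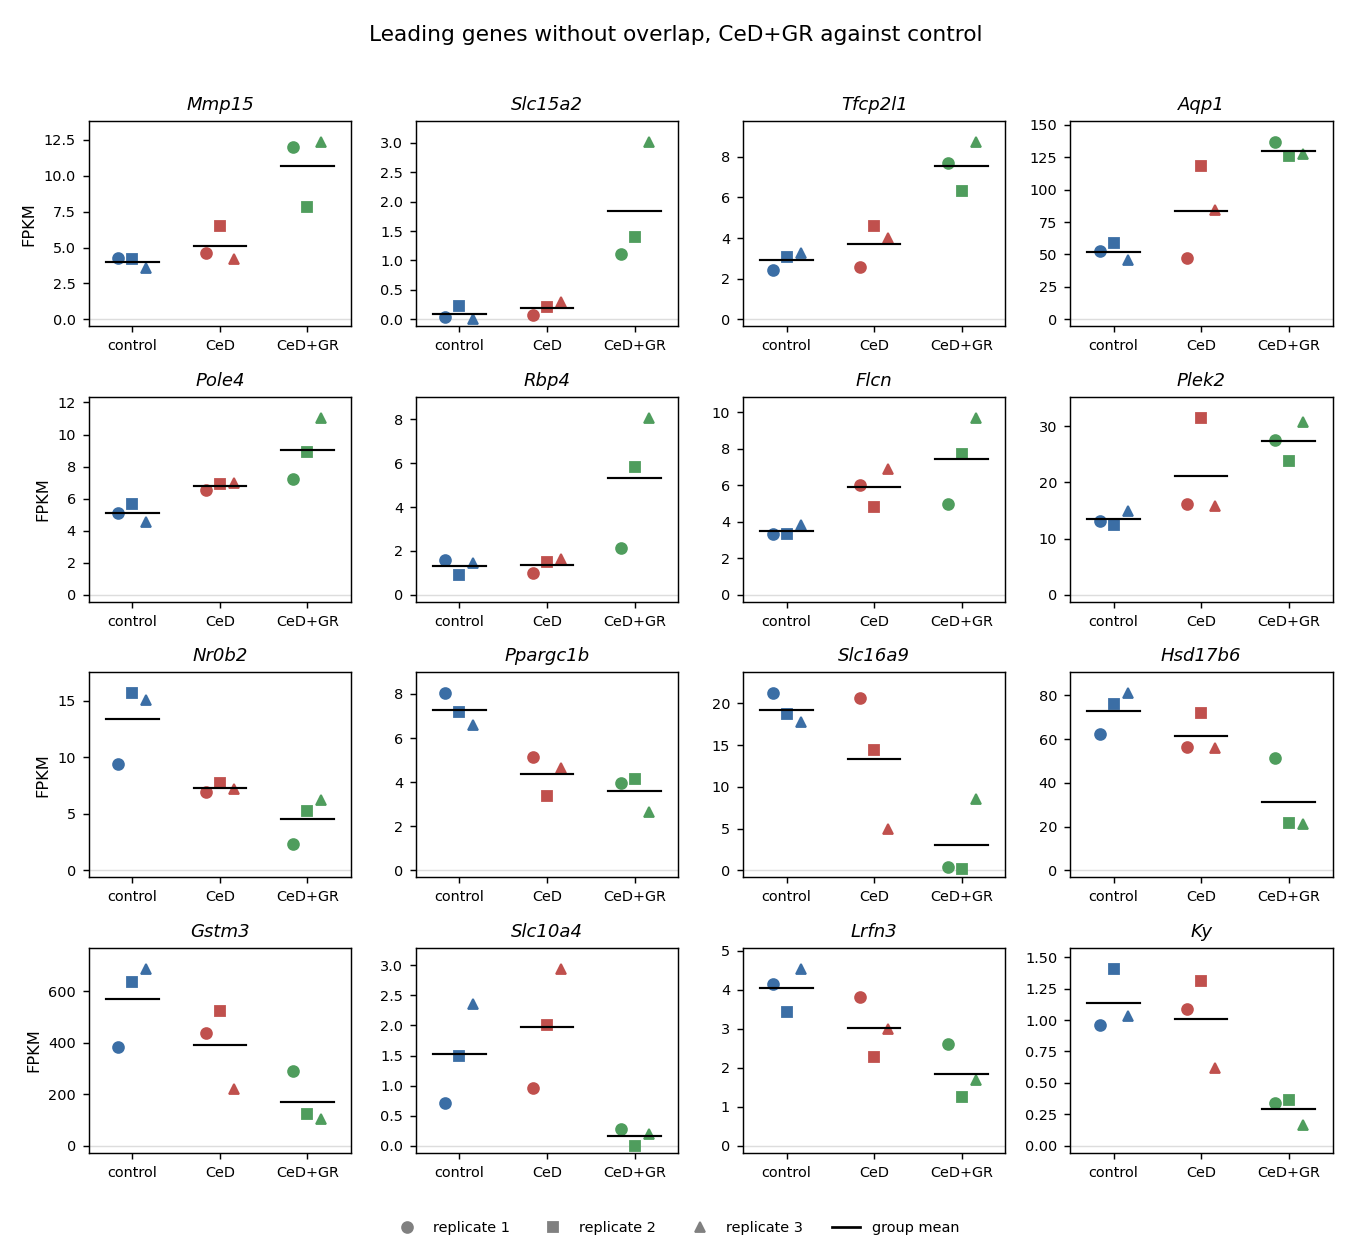
FPKM in each library for the 16 leading genes of CeD+GR against control, 8 higher and 8 lower, with groups on the horizontal axis, symbols for replicate numbers and lines for group means. The genes were chosen among those without overlap between CeD+GR and control. CeD lies next to control for Slc15a2 and Rbp4 and between the groups for Nr0b2. For Mmp15 CeD 2 lies between the groups.

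The challenged model with and without nanoparticles was set against control in 1 contrast, the mean of CeD and CeD+GR against control. All 6 challenged libraries lay above the 3 control libraries for 43 genes (0.293%) and below them for 66 genes (0.449%). At an unadjusted p under 0.05 limma gave 77 genes higher (0.524%) and 109 lower (0.742%). These p-values concern the mean of both groups, and a difference in CeD+GR alone can give a low value. Mmp15 had an unadjusted limma p of 0.00475 in this contrast and of 0.259 in CeD against control. Both challenged groups were set against the same 3 control libraries, so a low or high control library moves them together.

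Flcn, whose product folliculin acts on the Rag GTPases that recruit mTORC1 to lysosomes (ENSMUSG00000032633, chromosome 11, 59791408 to 59810016), was at 3.30, 3.35 and 3.83 FPKM in control. It was at 6.03, 4.82 and 6.87 FPKM in CeD and at 4.99, 7.71 and 9.69 FPKM in CeD+GR. The log2 fold change of CeD+GR against control was 0.95 (SE 0.26) by limma, unadjusted p of 0.00515, adjusted p of 1. Mpc1, a subunit of the mitochondrial pyruvate carrier, was at 3.45 to 5.01 FPKM in control, 6.004 to 10.4 FPKM in CeD and 6.43 to 9.09 FPKM in CeD+GR. Pole4 was at 4.51 to 5.66 FPKM in control and at 7.21, 8.88 and 11.04 FPKM in CeD+GR, with CeD at 6.53 to 6.99 FPKM. Plek2 was at 12.4 to 14.9 FPKM in control and at 23.8 to 30.7 FPKM in CeD+GR, and in CeD only CeD 2 was as high, at 31.5 FPKM. By their known roles these 4 genes act in nutrient sensing, mitochondrial pyruvate import, DNA synthesis and the cytoskeleton.

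Chac1, a glutathione-degrading enzyme induced by ATF4 under amino acid and endoplasmic reticulum stress, was at 0.705, 0.292 and 0.543 FPKM in control. It was at 2.02, 1.06 and 1.63 FPKM in CeD and at 1.18, 1.01 and 4.82 FPKM in CeD+GR, where its log2 fold change was 1.25 and 0.67 without CeD+GR 3. Fahd2a, a fumarylacetoacetate hydrolase domain protein, was at 1.99 to 3.60 FPKM in control and at 4.19 to 8.20 FPKM in CeD+GR, with CeD at 3.64 to 6.43 FPKM.

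Lymphocyte genes were among those low in both challenged groups. Cd8a, a chain of the CD8 co-receptor (ENSMUSG00000053977, chromosome 6, 71373427 to 71379173), was at 11.04, 12.9 and 15.6 FPKM in control. It was at 5.63, 6.60 and 7.16 FPKM in CeD and at 8.17, 10.8 and 4.34 FPKM in CeD+GR, so that CeD+GR 1 and 2 lay between CeD and control and CeD+GR 3 below both. Gpr18, a receptor of intraepithelial lymphocytes, was at 2.2 to 3.88 FPKM in control and at 2.11, 1.53 and 0.735 FPKM in CeD+GR, with CeD at 1.11 to 1.38 FPKM. Cd27, a costimulatory receptor of lymphocytes, was at 0.779 to 1.53 FPKM in control, 0.268 to 0.554 FPKM in CeD and 0.289 to 0.655 FPKM in CeD+GR, and Tbx21, described with the cytotoxic genes, also lay below control in all 6 libraries. Parp3, an ADP-ribosyltransferase of DNA repair, was at 7.28, 7.63 and 11.2 FPKM in control and at 4.71, 5.36 and 4.88 FPKM in CeD+GR, within the range of CeD.

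**Figure D3:**
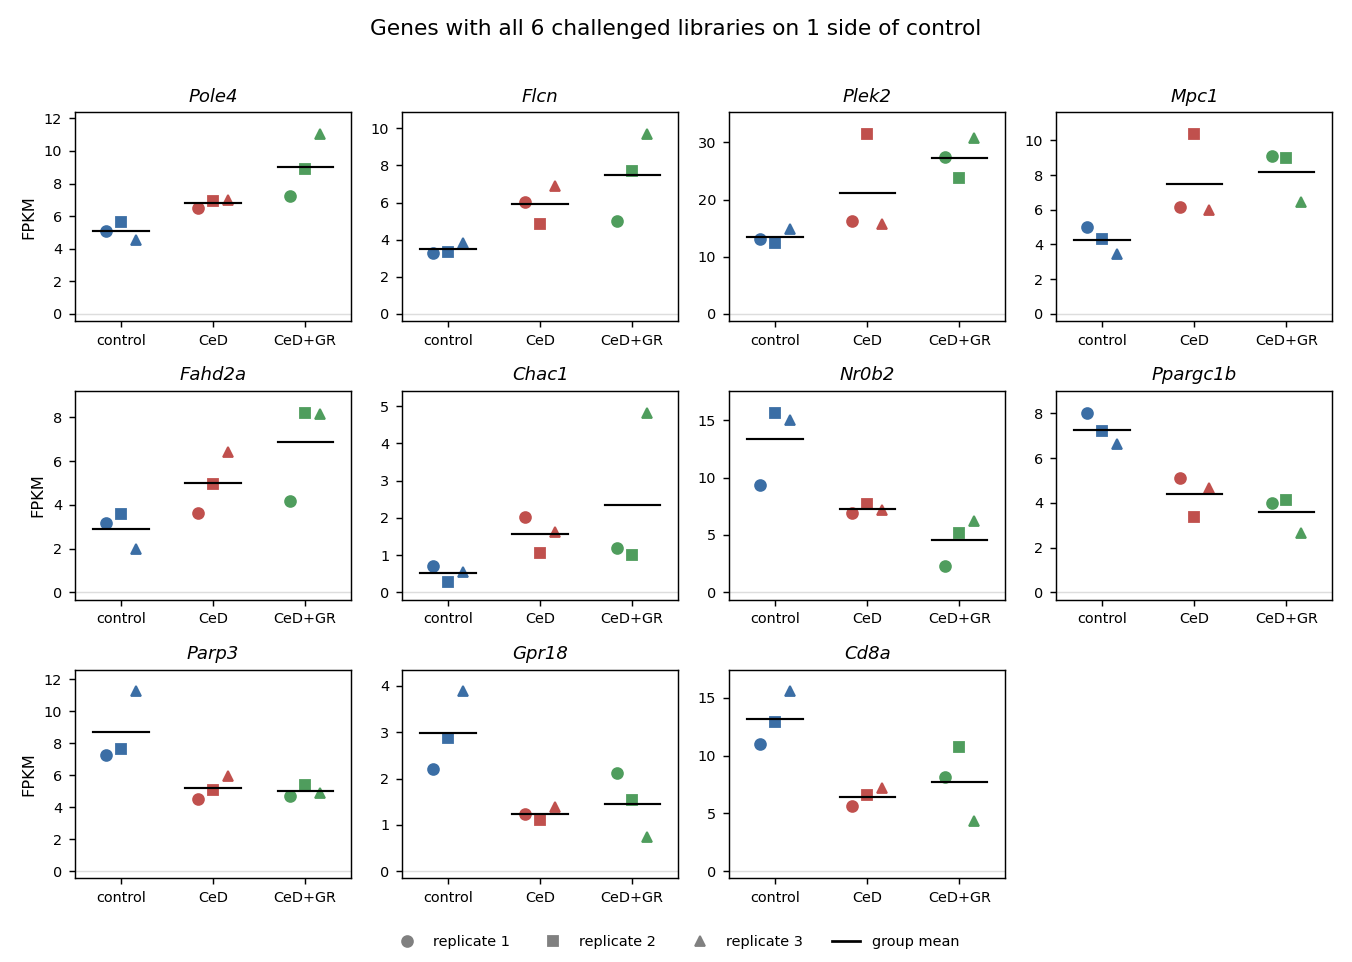
FPKM in each library for 11 genes whose 6 challenged libraries all lie on 1 side of the 3 control libraries, 6 above and 5 below, with symbols for replicate numbers and lines for group means. Cd8a is lowest in CeD+GR 3, at 4.34 FPKM, and Parp3 is alike in both challenged groups.

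Some genes stood away from control in CeD and near or beyond it in CeD+GR. Angptl4, a secreted inhibitor of lipoprotein lipase and a PPAR target, was at 36.9, 36.9 and 48.4 FPKM in control and at 9.32, 17.5 and 13.3 FPKM in CeD. In CeD+GR it was at 44.5 and 45.9 FPKM in replicates 1 and 2, within the control range, and at 18.7 FPKM in CeD+GR 3. The log2 fold change against control was -0.26 (SE 0.38). Cyp1a1, a monooxygenase under control of the aryl hydrocarbon receptor, was at 0.552, 1.10 and 0.425 FPKM in control, at 10.8, 40.7 and 1.61 FPKM in CeD and at 0.394, 1.60 and 0.176 FPKM in CeD+GR. The treated and control values of Cyp1a1 overlapped, with a log2 fold change of -0.10 (SE 0.93). Each treated library was below each CeD library, but CeD+GR 2 only just below CeD 3.

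Bok, a pro-apoptotic member of the Bcl-2 family, went past control instead. It was at 8.48, 14.9 and 14.2 FPKM in control, at 5.00, 7.17 and 7.02 FPKM in CeD and at 34.6, 19.9 and 22.8 FPKM in CeD+GR, so that the 3 groups did not overlap. Against control the log2 fold change was 1.01 (SE 0.30) by limma, unadjusted p of 0.00837, adjusted p of 1. Over the 20 tested apoptosis regulators the median was -0.04, with 9 higher and 11 lower and a range of -0.17 to 0.10 when 1 library was left out, so Bok did not stand for its list.

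Cytotoxic and intraepithelial lymphocyte genes were lower by value than in control. Of 20 listed genes 13 were tested and all 13 were below 0 on the log2 fold change scale (median -0.64), but none passed. Without overlap 3 of the 13 lay below control, against 3.04% of all genes. Without CeD+GR 3, 11 of the 13 were negative and the median was -0.34. As mean log2 levels the list stood at 3.09, 3.36 and 3.46 in control, at 2.40, 2.69 and 2.52 in CeD and at 3.05, 2.96 and 2.03 in CeD+GR. CeD+GR 1 and 2 were just under the lowest control library, and CeD+GR 3 was the lowest of all 9.

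Single members showed that spread. Klrd1, the CD94 chain of natural killer receptors, was at 7.03, 11.8 and 11.2 FPKM in control, at 2.49 to 2.93 FPKM in CeD and at 4.59, 10.3 and 2.005 FPKM in CeD+GR. Gzmb, granzyme B, was at 43.6, 45.8 and 56.0 FPKM in control and at 53.2, 36.2 and 15.0 FPKM in CeD+GR, with CeD at 23.8 to 26.1 FPKM, from within the control range to below all 3 CeD libraries. Tbx21, the transcription factor T-bet of type 1 lymphocytes, was low in all treated libraries, at 0.519, 0 and 0.0246 FPKM against 0.739 to 0.971 FPKM in control and 0.446 to 0.609 FPKM in CeD. Prf1, perforin, was below the level tested, with 41, 25 and 33 reads in control and 18, 12 and 14 reads in CeD+GR.

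Among T cell genes 13 of 15 were negative and the median was -0.22, against 6 of 15 and 0.08 without CeD+GR 3 and a median of -0.64 without CeD+GR 2. Cd3e, a signalling subunit of the T cell receptor, was at 2.67, 2.51 and 1.69 FPKM in control and at 1.65, 1.81 and 0.765 FPKM in CeD+GR. The 18 listed genes summed to 45.8 to 57.2 FPKM in control and to 41.7, 73.5 and 23.2 FPKM in CeD+GR 1 to 3. CeD+GR 2 was thus the highest and CeD+GR 3 the lowest of the 9 libraries. In the plasma cell list 9 of 13 genes were negative and 4 positive, and the median of -0.22 was -0.02 without control 1, -0.68 without control 2 and -0.60 without CeD+GR 1. Its lowest member Mzb1, an endoplasmic reticulum cochaperone, was at 12.8 to 20.7 FPKM in control and at 16.2, 7.30 and 8.72 FPKM in CeD+GR.

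Interferon genes were low by value in 2 of the 3 treated libraries. The log2 fold change was below 0 for all 26 type I interferon genes tested (median -0.58), and for 24 of 26 without CeD+GR 3 (median -0.38). Leaving out CeD+GR 1 gave a median of -0.39, and leaving out CeD+GR 2 gave -0.97. None passed, and 1 of the 26 lay below control without overlap, a share near the 3.04% of all genes. Mx1, an antiviral GTPase, was at 6.46, 3.03 and 2.77 FPKM in control and at 1.54, 1.48 and 1.99 FPKM in CeD+GR, with CeD at 1.76 to 3.09 FPKM. Ifit2, an antiviral RNA-binding protein, was at 11.3, 8.85 and 3.14 FPKM in control and at 3.08, 3.33 and 2.06 FPKM in CeD+GR. Averaged as log2 levels, these genes stood at 4.77, 4.75 and 4.14 in control and at 3.57, 4.78 and 3.57 in CeD+GR, so CeD+GR 2 was at the top of the control range while the others were below it.

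The medians of the antigen presentation lists moved with single libraries. The MHC class I list had 20 of 21 members negative with a median of -0.32, 11 of 21 with a median of -0.00 without CeD+GR 3, and a median of -0.63 without CeD+GR 2. The MHC class II list went from -0.30 to 0.25, and from 9 to 2 negative members of 11, without CeD+GR 3, and to -0.55 without CeD+GR 1. Ciita, the coactivator that switches on class II genes, was at 3.72 to 4.61 FPKM in control and at 4.34, 1.998 and 0.969 FPKM in CeD+GR. The interferon gamma median of -0.27 turned to 0.03 without CeD+GR 3, and leaving out CeD+GR 2 gave -0.57. In inducible epithelial defence, Reg1, a secreted C-type lectin, was at 2515, 4723 and 3763 FPKM in control and at 536, 331.8 and 2929 FPKM in CeD+GR, and Il18, an epithelial cytokine, at 96.2 to 168 FPKM in control and 104, 54.2 and 44.4 FPKM in CeD+GR. Pigr, which carries IgA across the epithelium, was at 1643 to 2331 FPKM in control and at 1422, 1217 and 775 FPKM in CeD+GR, below control in all 3. The median of the 12 tested defence genes was -0.69, and ran from -1.22 without CeD+GR 1 to -0.42 without CeD+GR 2.

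The low medians of the enterocyte absorption lists moved to near or above 0 without CeD+GR 3. All 19 genes of sugar, peptide and amino acid transport were negative with a median of -0.57, and 9 of 19 were without that library, with a median of 0.02. For brush border digestion 24 of 25 were negative with a median of -0.43, and 7 of 25 without it, with a median of 0.11. Fat absorption went from -0.34 to 0.20 and drug metabolism from -0.50 to -0.03. Without CeD+GR 1 the medians of these 4 lists were -1.005, -0.85, -0.68 and -0.98. In CeD+GR 3 the gastric and gland genes described above were high beside this, and their part in it was not tested. The mean log2 level of the transport list was 5.99 and 5.90 in CeD+GR 1 and 2, within the control range of 5.73 to 6.14, and 4.10 in CeD+GR 3.

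Single absorption genes differed in all treated libraries. Slc46a1, the proton-coupled folate transporter of the duodenum, was at 122, 152 and 118 FPKM in control and at 69.8, 55.1 and 74.8 FPKM in CeD+GR, with no overlap and a log2 fold change of -0.97 (SE 0.35), while CeD spanned 58.2 to 157 FPKM. Mgam, the brush border enzyme maltase-glucoamylase, was at 428 to 604 FPKM in control and at 325, 412 and 136 FPKM in CeD+GR. Tmprss15, enteropeptidase, which activates trypsinogen, was at 20.9 to 42.7 FPKM in control and at 14.5, 2.69 and 19.5 FPKM in CeD+GR. Vdr, the vitamin D receptor, was at 81.3 to 86.0 FPKM in control and at 62.4, 55.1 and 43.4 FPKM in CeD+GR. Akp3, a duodenal alkaline phosphatase, by contrast ranged from 1.996 to 3157 FPKM within CeD+GR and from 361 to 2406 FPKM within control.

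Metal handling genes gave a similar picture. Slc30a1, a zinc exporter that metal exposure induces, was at 11.1, 15.3 and 19.2 FPKM in control and at 10.9, 7.35 and 7.10 FPKM in CeD+GR, with CeD at 9.79 to 9.98 FPKM. Slc30a10, a manganese exporter, was at 32.5 to 40.5 FPKM in control and at 12.8, 15.5 and 30.2 FPKM in CeD+GR. CeD was below control as well, at 28.7, 16.3 and 11.9 FPKM. Fth1, the heavy chain of ferritin, was at 4793 to 5513 FPKM in control and at 2891, 1417 and 4593 FPKM in CeD+GR, where CeD+GR 1 and 2 were also the libraries low in Slc40a1 and Pdx1. Over the 13 iron genes the median was -0.14, and it was -0.25 to -0.27 without any 1 of the CeD+GR libraries.

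Nuclear-encoded respiratory and fat oxidation genes were slightly lower by value in most members, and genes of the mitochondrial genome were not. Of 38 nuclear-encoded respiratory chain genes 36 were negative, with a median of -0.27, and 32 were without CeD+GR 3, with a median of -0.19. The median was -0.50 without control 1, -0.10 without control 2 and -0.15 without control 3. Of the 13 mitochondrial genome genes 10 were positive with a median of 0.13, which was -0.26 without control 1 and 0.61 without control 2, the library with the most mitochondrial reads (10.2%). Sdha, the catalytic subunit of succinate dehydrogenase, was at 165.8 to 187.6 FPKM in control and at 165.6, 97.4 and 95.1 FPKM in CeD+GR. Among 25 PPAR and fat oxidation genes 23 were negative with a median of -0.30, and 18 without CeD+GR 3, with a median of -0.24. Without CeD+GR 1 that median was -0.59. Acadl, the long-chain acyl-CoA dehydrogenase, was at 143 to 167 FPKM in control and at 116, 96.3 and 108 FPKM in CeD+GR, with no overlap. None of these genes passed.

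Genes of the rapamycin target pathway lay near control. The 33 tested mTORC1 genes had a median of 0.12 with 18 higher and 15 lower, and it ran from 0.03 without CeD+GR 3 to 0.19 without CeD+GR 2. Mtor itself was at 5.69, 2.46 and 2.65 FPKM in control and at 3.75, 0.992 and 4.05 FPKM in CeD+GR. Rheb, the GTPase that activates mTORC1, was at 5.63 to 6.06 FPKM in control and at 7.15, 6.96 and 9.41 FPKM in CeD+GR, with no overlap. CeD was above control as well, at 6.36 to 6.98 FPKM. Eif4ebp1, the translation repressor that mTORC1 phosphorylates and an ATF4 target, was at 10.3, 4.67 and 4.67 FPKM in control and at 12.4, 8.38 and 15.3 FPKM in CeD+GR. These are RNA levels, and the activity of the kinase was not measured.

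Of 27 autophagy and lysosome genes 20 were higher with a median of 0.17, and 16 were higher without CeD+GR 3, with a median of 0.08, as it also was without control 1. Ctsd, the lysosomal protease cathepsin D, was at 37.9, 40.5 and 37.7 FPKM in control and at 46.3, 61.0 and 88.1 FPKM in CeD+GR. Map1lc3b, which coats autophagosome membranes, was at 11.2 to 12.1 FPKM in control and at 13.3 to 14.9 FPKM in CeD+GR, a small difference with no overlap. The 26 tested ATF4 targets had a median of 0.25, which was 0.08 without CeD+GR 3 and 0.52 without control 1. Of 51 cytosolic ribosomal protein genes 44 were higher with a median of 0.29, and 32 were without CeD+GR 3, with a median of 0.08. Leaving out CeD+GR 1 gave a median of 0.14, and leaving out CeD+GR 2 gave 0.59. Their mean log2 level was 7.46, 6.46 and 7.64 in CeD+GR and 6.88 to 6.97 in control, so that CeD+GR 2 lay below every control library. Each of these medians stands beside -0.00 over all genes.

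**Figure D4:**
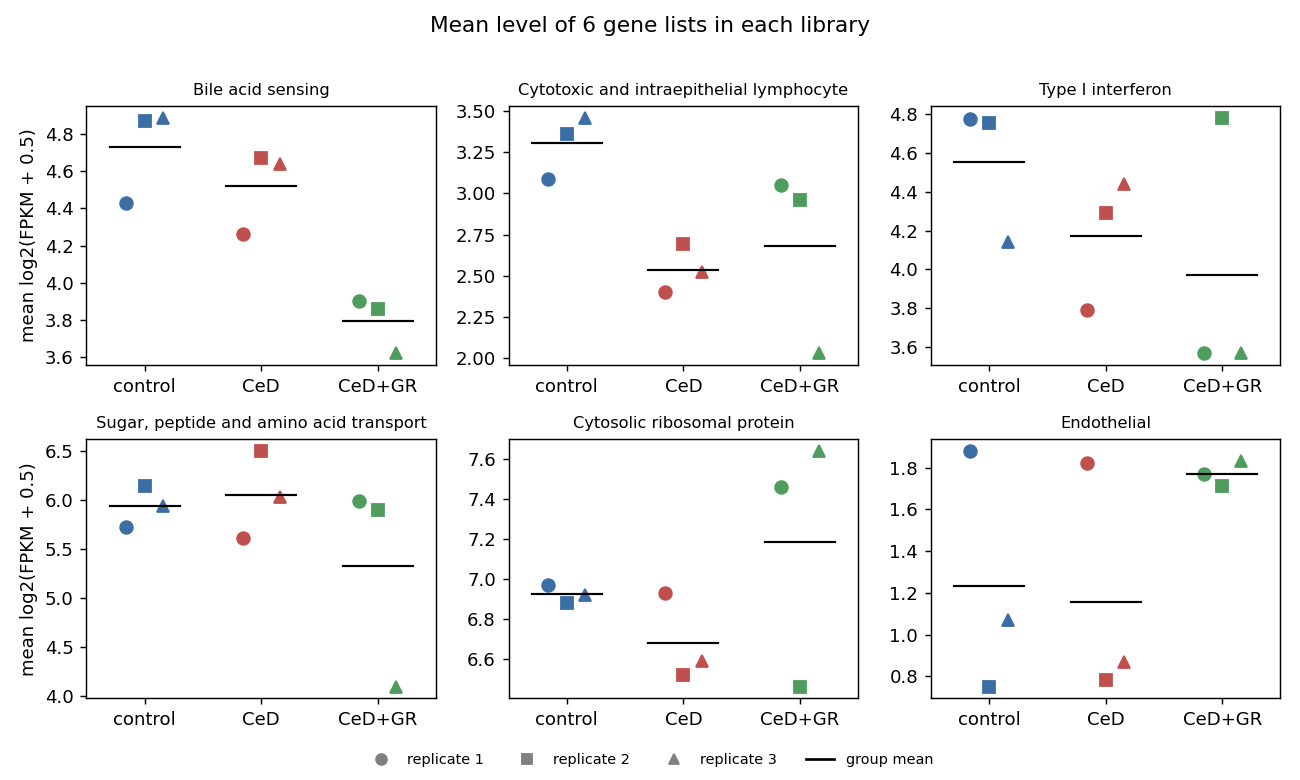
Mean of log2(FPKM + 0.5) over the tested members of 6 gene lists in each library, with groups on the horizontal axis, symbols for replicate numbers and lines for group means. Bile acid genes are lowest in the 3 treated libraries, at 3.62 to 3.90, and the transport genes are low in CeD+GR 3 alone, at 4.10.

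Endothelial genes were higher by value. Of 17 tested genes 16 were positive with a median of 0.64, and 15 of 17 without CeD+GR 3, with a median of 0.56. None passed, and 3 of the 17 lay above control without overlap, against 2.54% of all genes. Esam, an adhesion molecule of endothelial junctions, was at 3.53, 1.76 and 4.45 FPKM in control and at 4.17, 8.26 and 8.36 FPKM in CeD+GR, with CeD at 1.67 to 3.15 FPKM. Emcn, a sialoprotein of capillaries and veins, was at 0.619 to 1.39 FPKM in control and at 1.46 to 2.30 FPKM in CeD+GR. The 19 listed genes summed to 97.1, 29.0 and 39.9 FPKM in control and to 89.0, 65.9 and 96.0 FPKM in CeD+GR. Control 1, which like all libraries numbered 1 was rich in Paneth cell genes, was as high as the treated libraries, and without control 1 the median was 0.92, and 0.28 without control 2.

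Blood and fat genes pointed the same way. Hba-a1, an alpha globin whose reads may be shared with its near-identical copy Hba-a2, was at 9.94, 3.20 and 2.41 FPKM in control and at 7.95, 27.5 and 18.9 FPKM in CeD+GR. All 4 tested erythroid genes were positive, with a median of 1.52, and 0.94 without CeD+GR 2. The adipocyte median of 0.88 turned to -0.21 without CeD+GR 2 and was 1.58 without CeD+GR 1, and Fabp4, a fatty acid carrier of fat and endothelial cells, was at 4.62, 83.3 and 9.99 FPKM in CeD+GR against 3.17 to 4.34 FPKM in control.

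Muscle and nerve genes were lower by value. Of 16 smooth muscle genes 15 were negative with a median of -0.55, and 15 again without CeD+GR 3, with a median of -0.74. The 17 listed genes summed to 588, 909.7 and 918 FPKM in control and to 280.0, 757 and 859.8 FPKM in CeD+GR, so CeD+GR 1 was the low library, and without it the median was -0.04. Myh11, smooth muscle myosin, was at 59.6, 64.0 and 73.1 FPKM in control, at 55.5, 95.6 and 206 FPKM in CeD and at 16.2, 47.1 and 50.3 FPKM in CeD+GR. In the enteric neuron and glia list 13 of 15 genes were negative (median -0.61), and 13 again without CeD+GR 3 (median -0.44). Without CeD+GR 2 that median was -0.96. How much outer wall each piece of tissue held is not given in the sources used here.

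Secretory cell types differed in part. Atoh1, the transcription factor that sets secretory fate, was at 5.08, 5.73 and 4.78 FPKM in control and at 3.32, 2.93 and 1.67 FPKM in CeD+GR, with no overlap. The goblet list that holds it had a median of -0.06, with 7 higher and 7 lower, and of -0.28 to 0.20 with 1 library left out. Of 14 tuft cell genes 11 were negative with a median of -0.44, and 11 again without CeD+GR 3, with a median of -0.26. Pou2f3, the factor that specifies tuft cells, was at 0.676, 1.55 and 1.17 FPKM in control and at 0.669, 0 and 0.238 FPKM in CeD+GR, and Trpm5, their cation channel, at 2.66 to 3.48 and at 2.62, 1.32 and 1.15 FPKM. Among hormones, Ghrl, ghrelin, was at 2.03 to 3.46 FPKM in control and at 6.40, 3.65 and 5.33 FPKM in CeD+GR, while Scg2, a granin of endocrine cells, was at 8.71 to 11.4 FPKM in control and at 6.29, 6.01 and 1.61 FPKM. The 19 tested endocrine genes had a median of -0.01, which turned to 0.46 with 15 positive without CeD+GR 3, and leaving out CeD+GR 1 gave -0.33.

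Crypt and stromal lists mostly followed single libraries. The Paneth list had a median of 0.04, -1.63 when CeD+GR 1, the library with the highest Paneth sum, was left out, and up to 0.95 with another library left out. Of the proliferation genes 18 of 25 were higher (median 0.20), and 11 of 25 without CeD+GR 3 (median -0.05). That median ran from -0.20 without CeD+GR 1 to 0.76 without control 1. Fibroblast and matrix genes had 17 of 23 higher with a median of 0.29, which was 0.03 without control 2, 0.12 without control 3 and 0.59 without control 1. Dcn, the matrix proteoglycan decorin, was at 15.5, 4.74 and 5.51 FPKM in control and at 13.6, 23.7 and 14.5 FPKM in CeD+GR, whereas Thbs2, a matrix glycoprotein, was at 1.99 to 2.93 FPKM and at 0.415, 2.02 and 0.262 FPKM. Smad6, an inhibitor of BMP signalling, was at 8.82 to 9.46 FPKM in control and at 7.80, 5.31 and 5.61 FPKM in CeD+GR, with no overlap, in a list with a median of -0.04 and of -0.20 to 0.01 with 1 library left out. The medians of the macrophage and dendritic cell, chemokine, cholesterol synthesis, tight junction, heat shock and circadian lists lay between -0.04 and 0.06, and between -0.25 and 0.32 with 1 library left out.

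Traces of pancreas were lower than in control. Of 22 tested pancreatic genes 20 were negative with a median of -1.07, and 19 without CeD+GR 3, with a median of -1.24. Without overlap 13 of the 22 lay below control, against 3.04% of all genes. These 13 genes are not independent of each other. Ctrb1, chymotrypsinogen B, was at 22.5, 4.20 and 5.00 FPKM in control and at 0.221, 0 and 1.53 FPKM in CeD+GR, while CeD was at 1472, 0.0790 and 0 FPKM. As mean log2 levels the list stood at 1.64 to 2.39 in control, at 7.17, 0.62 and 0.46 in CeD and at 0.60, 0.51 and 1.26 in CeD+GR. CeD 2 and 3 were thus about as low as the treated libraries. Pnlip, pancreatic lipase, was listed at 0 in CeD+GR 1 and 2 and at 3.38 FPKM in CeD+GR 3, against 4.46 to 6.27 FPKM in control. These enzymes are made outside the duodenal wall. The 25 listed genes summed to 1286 to 2150 FPKM in control and to 1551, 2298 and 632.8 FPKM in CeD+GR, most of it Zg16 (2260 FPKM in CeD+GR 2), a lectin that goblet cells also make. Over the 13 tested gastric and gland genes the median was 2.83, and 0.00 without CeD+GR 3. A4gnt, a member of this list, was at 168 FPKM in CeD+GR 3 and at 0.230 FPKM or less elsewhere. It passed the level filter through that library alone, so its positive value was set by the filter.

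**Figure D5:**
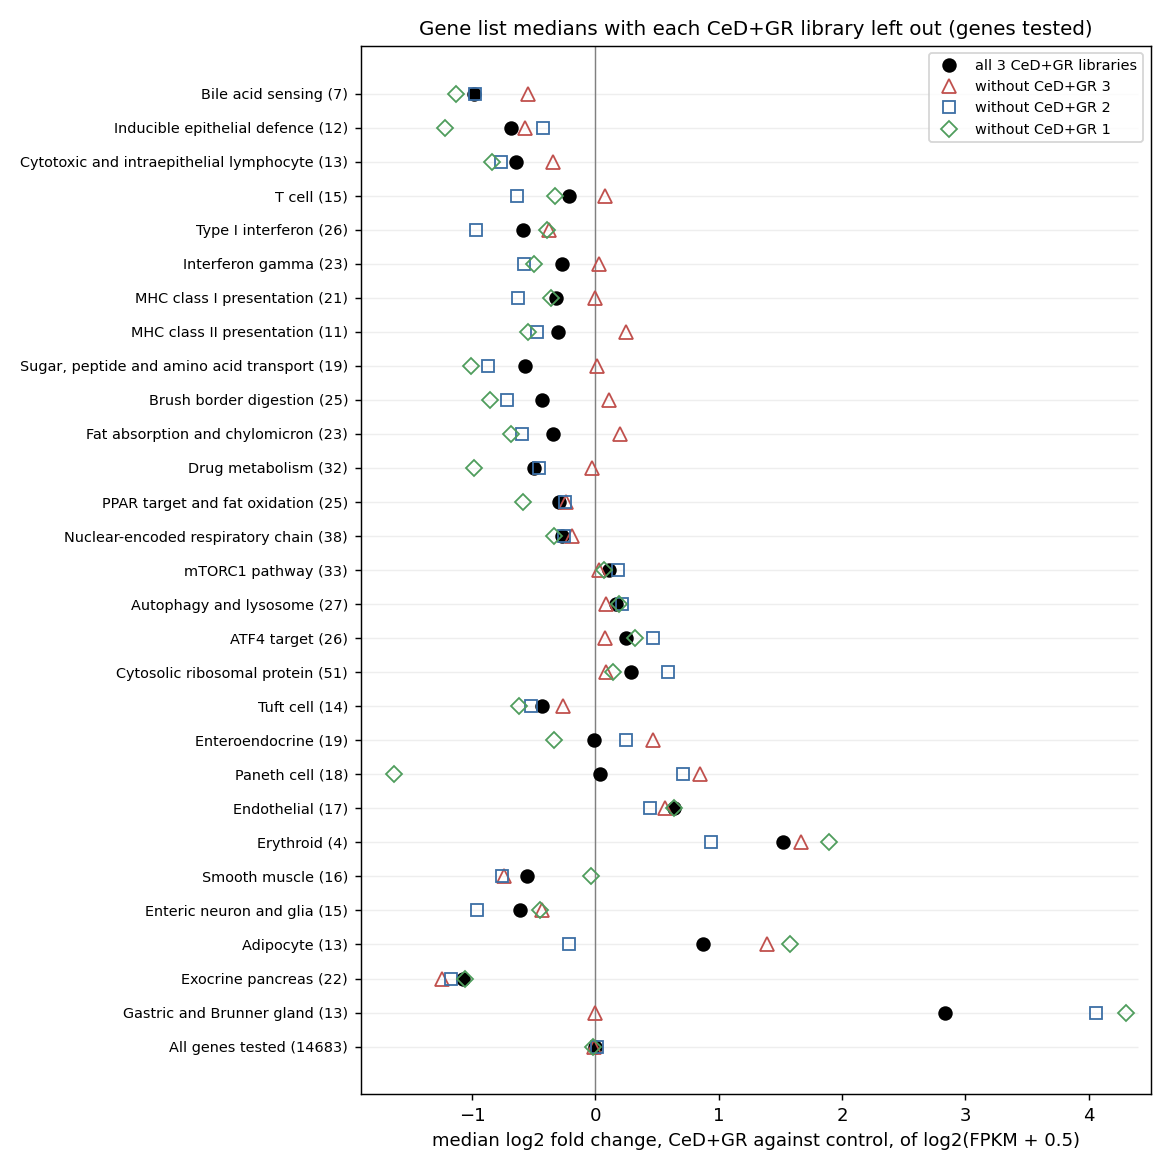
Median log2 fold change of CeD+GR against control for 28 gene lists and for all genes tested, with the number of tested genes in brackets, on the horizontal axis. Filled points use all 3 treated libraries and open symbols leave out 1 of them. Bile acid, endothelial and pancreas lists are among those that keep their side of 0 in all settings shown. Transport, digestion, fat absorption, interferon gamma, MHC class II and T cell lists are among those that cross 0 without CeD+GR 3.

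Genes tied to celiac disease by function varied between the treated libraries, and several were too low to test. Tgm2, the transglutaminase that deamidates gliadin and is the autoantigen of the disease, was at 22.4, 9.09 and 9.29 FPKM in control and at 21.6, 6.17 and 8.71 FPKM in CeD+GR, with the library numbered 1 highest in both groups. Il15, a cytokine that sustains intraepithelial lymphocytes, was at 8.26 to 14.6 FPKM in control and at 12.3, 32.9 and 4.46 FPKM in CeD+GR, from below to above all control libraries. Il21r, the receptor of interleukin 21, was at 1.54 to 2.25 FPKM in control, 0.557 to 1.15 FPKM in CeD and 1.01, 1.72 and 0.644 FPKM in CeD+GR. Ctla4, an inhibitory receptor of activated and regulatory T cells, was at 2.90, 1.76 and 9.77 FPKM in control and at 5.40, 5.42 and 1.60 FPKM in CeD+GR. Over the 13 tested genes of the list the median was -0.22, and it ran from -0.63 without CeD+GR 1 to -0.09 without CeD+GR 3.

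The cytokines of the response itself were rarely read. Over all 9 libraries Ifng had 11 reads, Il17a had 1, Il21 had 2 and Il10 had 45. Foxp3, the regulatory T cell factor, had 9, 5 and 9 reads in control and 5, 0 and 6 reads in CeD+GR. A difference in these genes was not detectable at this depth.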

How the data were processed

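Duodenal RNA of 3 control, 3 CeD and 3 CeD+GR libraries was analysed from a gene table in which the authors deposited FPKM values. Per the submitters' processing notes, the mm10 build, featureCounts 1.5.0-p3, HISAT2 2.0.5, DESeq2 1.20.0 and fastp were used, in roles and order not stated, and the strand setting of the counting is not given in the sources used here. FPKM times gene length gave whole reads (tolerance 0.1) for 100% of values in each library, and these recovered reads served for depth and for limma-voom.

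Of 54532 genes, 14683 were tested, those whose FPKM averaged 0.5 or more across all 9 libraries. This filter can admit a gene through 1 group or library. Limma 3.58.1 in R 4.3.3 was fitted to log2(FPKM + 0.5) of all 9 libraries, with a mean-variance trend and 6 residual degrees of freedom. Tests were two-sided, with Benjamini-Hochberg adjustment over all genes tested and a threshold of 0.05. The scripts were checked on simulated data. An exact permutation test of 3 against 3 libraries cannot go below p = 0.1 and was not used.

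Named genes were, per direction, the 8 protein-coding genes with the smallest unadjusted p, no overlap between CeD+GR and control and a higher-group mean of at least 1 FPKM; 6 by the same rule for both challenged groups (1 of these is not reported here); up to 3 per gene list by unadjusted p; and a fixed set of celiac, mTOR and marker genes. The genes and the 54 lists were chosen with earlier results of these data known, so lists are described by counts and medians and carry no test. Alternatives covered the pseudocount, the filter, scaling, weights, the replicate block, the samples fitted and each library left out.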

Additional observations from a re-analysis of the deposited data

How the results depend on the processing

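CeD+GR against control had 0 genes past an adjusted p of 0.05 by limma in every setting except without control 1, where 1 gene, Gm22615, passed (log2 fold change -4.31, adjusted p of 0.0137), a predicted gene named after its values were seen. Both challenged groups against control also had 1 call without control 1. The 400 genes at an unadjusted p under 0.05 became 827 with no filter, 257 with a minimum mean of 2 FPKM, 245 in a fit of only the control and CeD+GR libraries, 873 with array weights, 335 with limma-voom, 946 with replicates 2 and 3 only, 611 with a term for replicate 1, and 1193 with that term and without CeD 1 and CeD+GR 3. Leaving out 1 library at a time gave 189 (without control 2) to 1072 (without CeD+GR 1), with 208 without control 3 and 959 without CeD+GR 2, and the cause was not tested. Median-of-ratios rescaling left the count at 400, so it was no separate check of the scaling, and quantile normalization gave 452. With the replicate number as a block the count was 643 and no gene passed. For both challenged groups against control the block moved the count at an unadjusted p under 0.05 from 186 to 298, also with no call. Deviations of the same-numbered libraries 1 to 3 correlated at 0.712, 0.367 and 0.41 between control and CeD, but at 0.414, 0.401 and -0.11 between control and CeD+GR and at 0.375, 0.254 and -0.12 between CeD and CeD+GR. The numbers thus did not pair CeD+GR 3 with the others, and both contrasts of the report include it, so the block was not used for them. Depth limits the cytokine genes, which had few or no reads.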
